A study of Mus musculus with 4 samples.

Results

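Interferon-stimulated genes are switched on when cells sense an interferon. The 34 genes described here were chosen by name from the table of gene counts, and all 34 names were found among its 43346 genes. They form 2 lists, given apart except where all 34 are counted together: 25 genes best known as targets of type I interferon, and 9 GTPase genes best known as targets of interferon gamma. All 34 had enough counts to be among the 20872 genes tested.

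Polyadenylated RNA was sequenced from mice labelled as over-expressing IL-33 from a transgene (libraries B and E) and from control mice (libraries D and F), 2 libraries per group. The sample labels call the material lung epithelial cells and the title of the series calls it lung tissue. No source used here names the promoter that drives the transgene, the strain, the age and sex of the animals or the number of mice per library, and p-values cover only the spread among these 4 libraries. The comparison asks how lungs with extra IL-33 differ from control lungs, here for the interferon response. Where 4 values follow each other they are in the order B, E, D, F, the transgenic pair first.

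Type I interferons signal through a receptor made of the products of Ifnar1 and Ifnar2 to the kinases JAK1 and TYK2, which activate a complex that contains STAT2 and IRF9. That complex binds a DNA element called the interferon-stimulated response element (ISRE). Interferon gamma signals through its own receptor and acts on a DNA element called the gamma-activated site (GAS), and it induces IRF1, which in turn acts on ISRE-like elements. The products of the target genes sense viral RNA, block its translation or degrade it, tag proteins with the ubiquitin-like ISG15, or, for the GTPases, attack the membranes around intracellular pathogens. In the lung, epithelial cells, endothelium and resident macrophages all carry interferon receptors and keep part of this set at a low resting level.

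Libraries summed to between 76120696 and 87723745 gene counts. Values below are counts per 1000000 (CPM) on library sizes scaled by the TMM method unless another scale is named. The labels were checked with Il33, whose level was 1723, 874, 117 and 108 CPM. The epithelial markers were abundant, with Sftpc, the surfactant protein C gene, between 20036 and 36323 CPM, but so were endothelial markers: Cdh5, the VE-cadherin gene, stood between 1115 and 1916 CPM and Epcam, a general epithelial marker, between 110 and 164 CPM. The libraries therefore held endothelial RNA as well as epithelial RNA. The summed level of 4 Y-linked genes was 1.43, 23.2, 258 and 122.6 CPM, lower in both transgenic libraries. The libraries thus differed in how much of their RNA came from males, and that difference ran with genotype and cannot be fully told apart from it. A fit with the Y-linked level as a covariate is given beside the medians below. In RNA from mixed cells, fewer cells of a type and less RNA per cell cannot be told apart.

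The promoters are shown first, since many of them hold the letters of these binding elements. RefSeq promoters (GRCm38.p6), each running from 250 bases before to 50 after a transcription start, were found for 24 of the 34 members. They were searched on both strands for the core ISRE letters (GAAA, any 2 bases, GAAA) and the GAS letters TTCNNNGAA, which read the same on both strands. The ISRE letters were present for 10 of 18 type I members and for 6 of 6 GTPase members with a promoter, against 3.99% of the 27025 genes in the RefSeq table. The GAS letters were present for 4 of 18 and 3 of 6, against 9.55% of all genes. In 1 promoter, that of Bst2, the 2 kinds of match overlapped. A match is a string of letters and not a measured binding site. The members Irf7, Irf9, Ifi44, Oasl1, Oasl2 and Xaf1 had neither string in this window, which says only that these letters are not there.

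The 8 stretches below give the 150 bases before the start for members chosen to show both kinds of match, 5′ to 3′ on the strand of the gene, with the ISRE and GAS letters in capitals. Isg15 (chr4:156200819-156200968, minus strand) holds 3 overlapping ISRE matches in a row, Ifit1 (chr19:34640739-34640888, plus strand) holds 2 apart, and Rsad2 (chr12:26456453-26456602, minus strand) holds 1. Oas1a (chr5:120907526-120907675, minus strand) has a GAS match farther out and 2 overlapping ISRE matches next to the start. Irf1 (chr11:53769864-53770013, plus strand) has a GAS match and no ISRE match. Among the GTPases, Gbp2 (chr3:142620513-142620662, plus strand) holds 1 ISRE match, Irgm1 (chr11:48871421-48871570, minus strand) 2 overlapping ones, and Igtp (chr11:58199406-58199555, plus strand) a GAS match and an ISRE match with 2 bases between them.
Isg15: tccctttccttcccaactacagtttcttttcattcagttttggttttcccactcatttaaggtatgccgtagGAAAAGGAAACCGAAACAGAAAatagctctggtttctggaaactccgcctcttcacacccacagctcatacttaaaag
Ifit1: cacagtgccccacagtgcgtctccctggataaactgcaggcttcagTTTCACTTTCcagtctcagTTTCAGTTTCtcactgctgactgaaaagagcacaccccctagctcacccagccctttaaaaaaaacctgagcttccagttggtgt
Oas1a: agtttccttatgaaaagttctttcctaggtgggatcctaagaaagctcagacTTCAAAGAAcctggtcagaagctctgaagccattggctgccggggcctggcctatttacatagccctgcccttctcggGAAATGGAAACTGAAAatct
Rsad2: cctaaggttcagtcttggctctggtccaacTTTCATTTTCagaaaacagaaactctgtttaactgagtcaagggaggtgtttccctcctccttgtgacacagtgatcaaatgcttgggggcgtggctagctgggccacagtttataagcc
Irf1: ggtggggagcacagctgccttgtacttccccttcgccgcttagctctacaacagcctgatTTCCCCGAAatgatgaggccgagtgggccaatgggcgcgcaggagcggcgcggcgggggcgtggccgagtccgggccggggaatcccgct
Gbp2: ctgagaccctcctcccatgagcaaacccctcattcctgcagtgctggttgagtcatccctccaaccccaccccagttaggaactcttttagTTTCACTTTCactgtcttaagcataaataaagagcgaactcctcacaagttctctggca
Igtp: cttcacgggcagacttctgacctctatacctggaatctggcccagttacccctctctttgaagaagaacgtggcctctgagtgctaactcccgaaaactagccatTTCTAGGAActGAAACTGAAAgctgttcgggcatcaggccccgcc
Irgm1: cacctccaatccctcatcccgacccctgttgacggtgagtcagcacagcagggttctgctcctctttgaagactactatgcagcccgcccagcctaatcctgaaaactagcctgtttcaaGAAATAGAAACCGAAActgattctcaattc

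**Figure D1:**
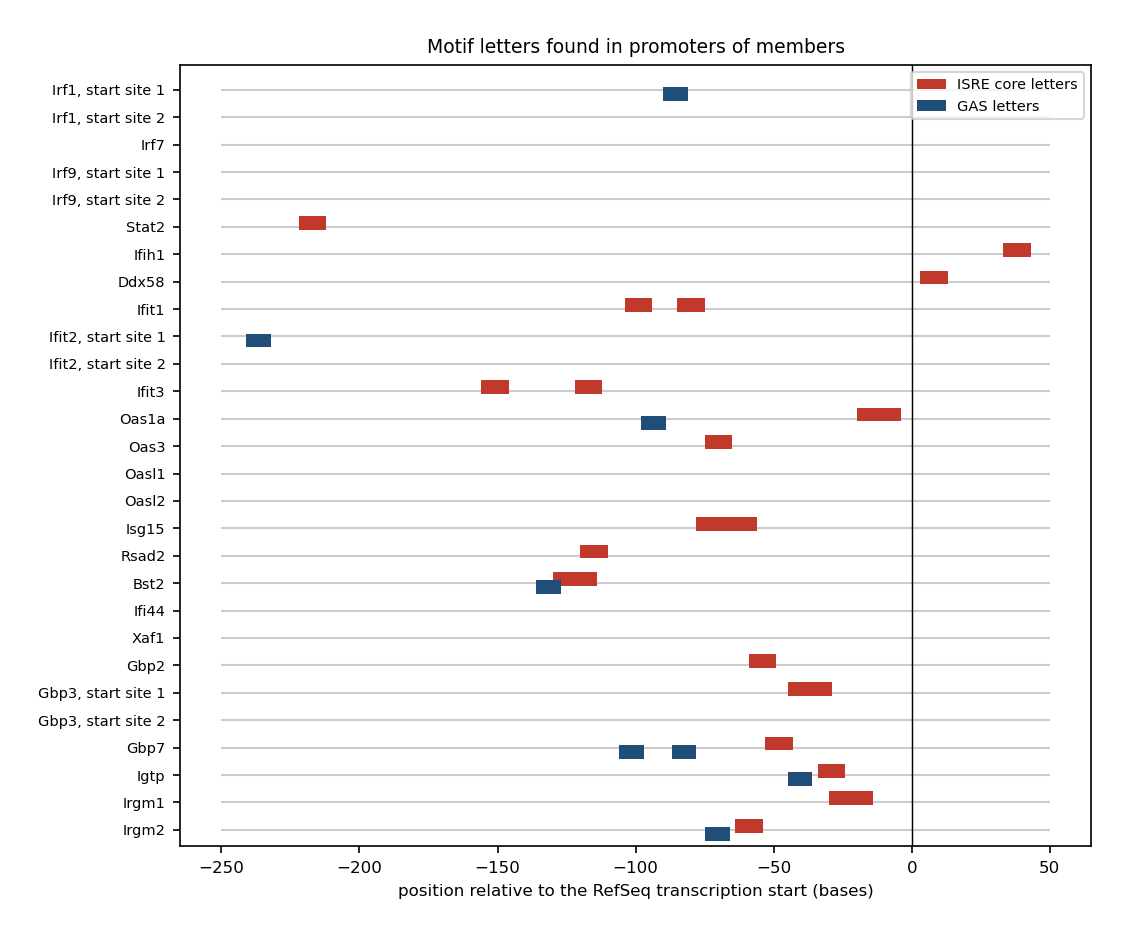
Positions of the ISRE core letters (red) and the GAS letters (blue) in each RefSeq promoter of the 24 members that have one. The horizontal axis is the distance in bases from the transcription start, the grey line is the window searched, and genes with 2 start sites have 2 lines. The GTPase promoters at the bottom all have a red bar for at least 1 start site, close to the start.

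These genes lay over a wide range of resting levels. Per length, as CPM per 1000 bases of the deposited gene length averaged over the 4 libraries, the members ran from 0.0442 for Oas3 to 38.8 for Irf1. Irf1, the transcription factor gene induced by interferon gamma and by other inflammatory signals, stood above 93.7% of all genes tested on that scale, and Bst2, which encodes the membrane tether that holds budding virions, above 91.2% at 29.7. After these came Gbp4 (9.87), Iigp1 (7.04), Gbp7 (7.0), Ddx58 (6.43) and Gbp2 (6.29), 4 of these 5 being GTPases. At the low end were classical markers of an active type I response: Oas3 at 0.0442, Oas2 at 0.0599, Zbp1 at 0.101, Mx1 at 0.111, Oasl1 at 0.126, Oas1a at 0.216, Ifit1 at 0.280 and Rsad2 at 0.295. Of these Ifit1 stood above 14.4% of genes tested and Oas3 above 1.55%. Of the 34 members, 7 averaged under 1 CPM (Zbp1, Oasl1, Oas3, Mx1, Oas2, Oas1a and Ifit1).

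**Figure D2:**
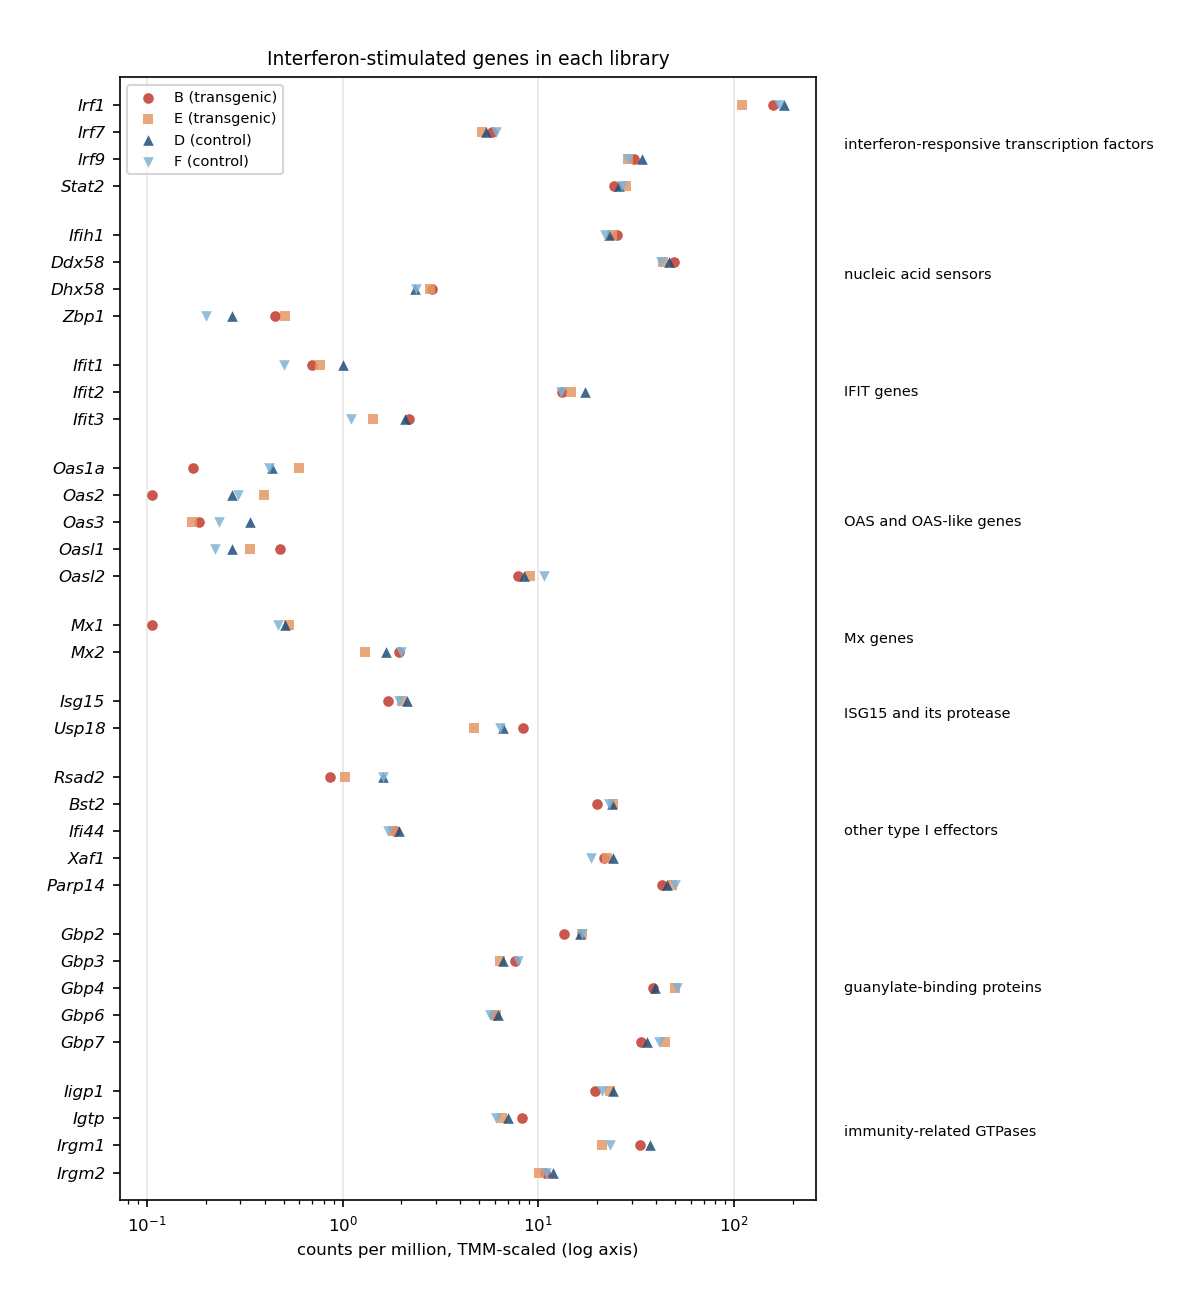
CPM of each member in each of the 4 libraries on a log axis, grouped by the role of the product. Red and orange symbols are the transgenic libraries B and E, dark and light blue symbols the controls D and F. For most members the 4 symbols lie on top of each other, while Mx1, Oas1a and Oas2 show a low value in library B.

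No member passed the test between transgenic and control libraries. Of the 34 members, 0 passed an adjusted p of 0.05 in edgeR's quasi-likelihood test, 0 in DESeq2 and 0 in limma-voom, and 2 had an unadjusted edgeR p under 0.05, Rsad2 and Zbp1. Few genes passed in the whole table: 0.0% of all 20872 genes passed the adjusted threshold in edgeR, 0.00479% in DESeq2 and 0.0% in limma-voom, and 1.29% had an unadjusted edgeR p under 0.05 (0.896% higher and 0.393% lower in transgenic libraries, against 1 member each). With 1 library left out 0 members passed as well, against 0.00924% of all genes without B, 0.0697% without E, 0.0% without D and 0.0231% without F. The median log2 fold change (transgenic over control) was -0.07 over the 25 type I members and -0.05 over the 9 GTPases, against -0.0013 over all genes tested. Of the type I values 9 were above 0 and 16 below, and of the GTPase values 3 and 6, against 10351 above and 10521 below over all genes. With the Y-linked level as a covariate both medians lay above 0 (0.08 and 0.09), and 20 of all 34 values were above 0. That fit adds a further term to only 4 libraries, and the Y-linked level ran with genotype. Its values are therefore uncertain and do not separate the Y-linked level from the transgene.

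The precision differed with the level. Of the 27 members averaging at least 1 CPM, 25 had a 95% interval of the fold change that lay within a 2-fold difference in both directions (92.6%, against 88.4% of all genes at that level). The other 2 were Rsad2 and Ifit3. The 7 scarcer members had wider intervals, and for none of them (0 of 7) did the interval stay within 2-fold. A 2-fold difference of those 7 genes in at least 1 direction was therefore within the error of these libraries.

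The groups did not overlap for 8 members, 4 higher and 4 lower in transgenic libraries (11.8% each), where 11.9% and 12.0% of all genes tested did so. Higher were Zbp1, Oasl1, Dhx58 and Ifih1, and lower were Rsad2, Oas3, Irf1 and the GTPase gene Irgm2. Those shares are near the background and are not a result about the members.

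**Figure D3:**
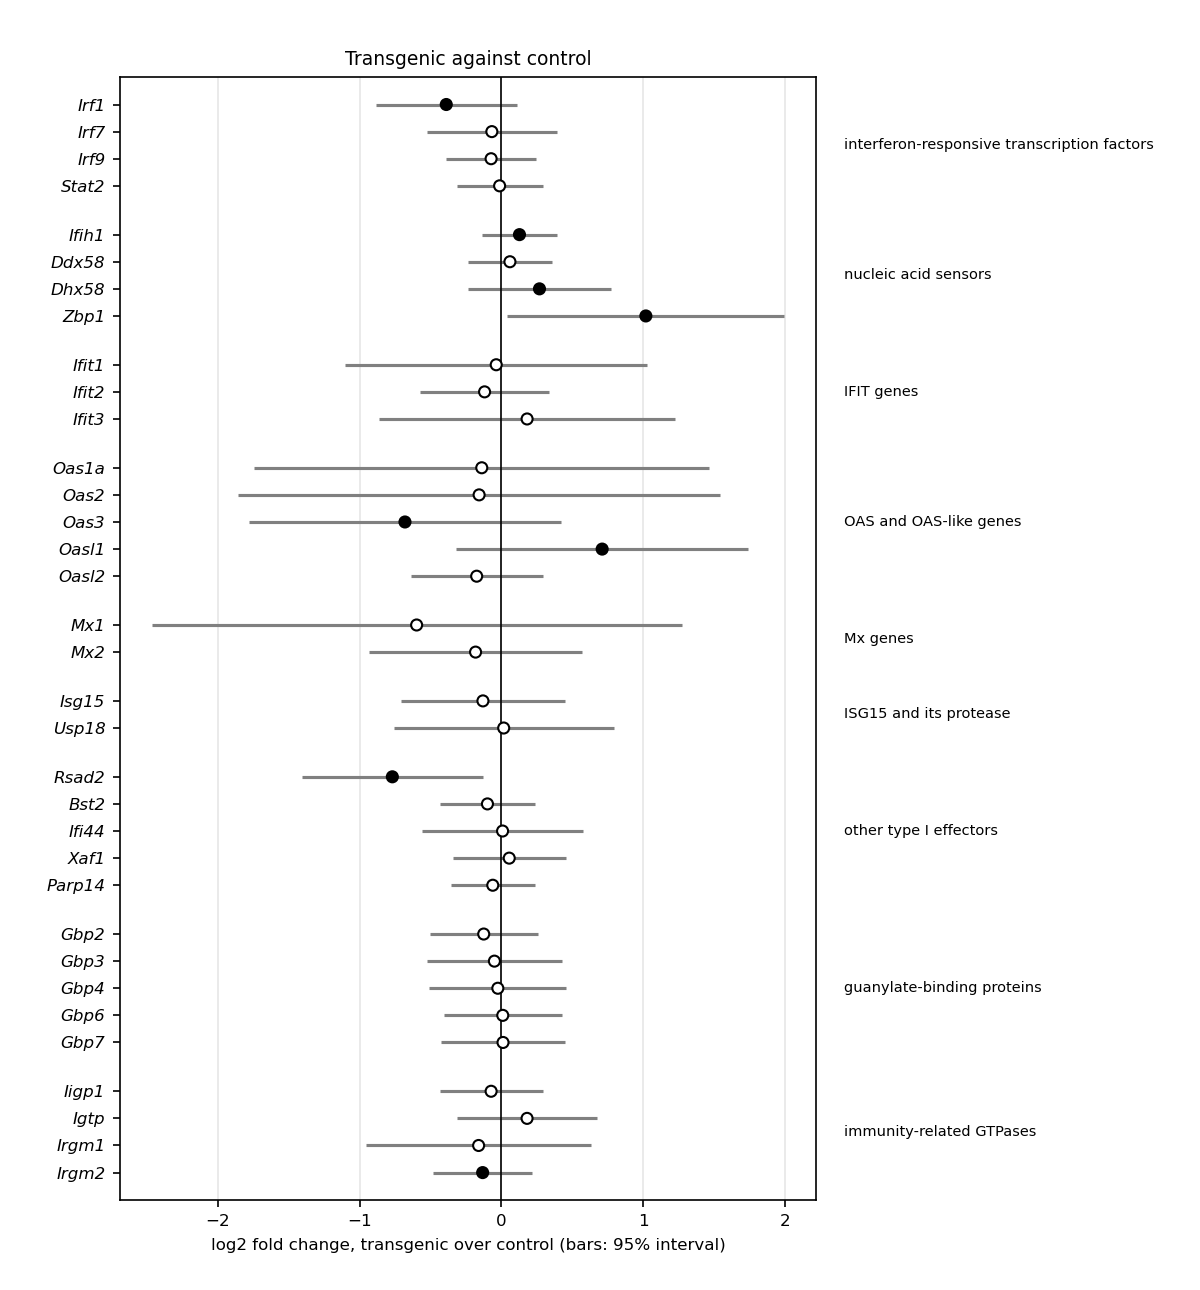
Log2 fold change of each member, transgenic over control, with the 95% interval from edgeR's quasi-likelihood fit. Filled points are the 8 members whose groups did not overlap. The interval of 32 members includes 0, and those of Rsad2 and Zbp1, whose adjusted p was 1, do not.

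Among the transcription factors of the response, Irf1 was the most abundant and had the largest difference. Irf1 (ENSMUSG00000018899, chromosome 11, 53770014 to 53778374, GRCm38) stood at 158, 110, 181 and 170 CPM. Both transgenic libraries were lower, E more so than B. Means were 134 ± 33.8 CPM with the transgene and 175 ± 7.78 CPM without it (SD, n = 2 each). The log2 fold change was -0.39 (SE 0.19, edgeR adjusted p = 1). Without library E it was -0.16, without library B -0.67, and with the Y-linked level as a covariate -0.99. The gene Gm17334 overlaps Irf1 on the other strand with 855 to 1216 counts, against 9733 to 14553 for Irf1, and no source used here gives the strand setting of the counting. Irf9, the DNA-binding part of the complex activated by type I interferon, was at 30.8, 28.8, 33.9 and 28.8 CPM in B, E, D and F. Stat2, its partner, was at 24.2, 28, 25.8 and 26.9 CPM in the same order. Irf7, which amplifies the production of type I interferon, was at 5.81, 5.13, 5.39 and 6.08 CPM. In these 3 genes the groups overlapped, and each 95% interval of the log2 fold change lay between -0.52 and 0.39. Irf7 overlaps Phrf1 and Irf9 overlaps Rnf31, so some reads may be shared.

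The 4 members grouped here as nucleic acid sensors all had values above 0 on the fold change scale, and none passed the test (0 of 4). That grouping was made with earlier results of these data known, so the shared direction is not a result about sensors. The OAS and OAS-like genes, of which the OAS genes also answer double-stranded RNA, were grouped apart. Of their 5 values 1 was above 0 and 4 below. Ifih1 encodes MDA5, a sensor of long double-stranded RNA, and stood at 25.2, 23.8, 22.9 and 22 CPM. Ddx58 encodes RIG-I, a sensor of RNA ends, and stood at 49.1, 43.5, 46.6 and 42.2 CPM in the same order. Dhx58, which encodes the related LGP2, was at 2.87 and 2.81 CPM in B and E and at 2.36 CPM in both D and F (log2 fold change 0.27, SE 0.20, edgeR adjusted p = 1). The groups of Ifih1 and Dhx58 did not overlap, and those of Ddx58 did.

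Zbp1, a sensor of Z-form nucleic acid that can trigger cell death, had the largest positive fold change of the members. Zbp1 (ENSMUSG00000027514, chromosome 2, 173206612 to 173218923) had 34, 45, 22 and 17 counts, or 0.450, 0.508, 0.273 and 0.200 CPM. Means were 0.479 ± 0.041 and 0.236 ± 0.052 CPM (SD, n = 2 each). The log2 fold change was 1.02 (SE 0.38, edgeR adjusted p = 1). Markers of some leukocytes lay higher in the same libraries: the summed level of 7 T cell markers was 9.74, 9.11, 6.65 and 5.45 CPM, that of 7 natural killer cell markers 3.81, 2.66, 1.95 and 1.60 CPM, and that of 7 neutrophil markers 11.3, 16.1, 6.25 and 7.47 CPM. Of these markers 4 of 7, 2 of 7 and 6 of 7 lay higher in both transgenic libraries, against the 11.9% of all genes given above, and Ly6g was at 0 in B. Also higher were the sums of 6 B cell markers (18.5, 15.3, 11.0 and 10.4 CPM) and of 7 markers of monocytes and interstitial macrophages (55.5, 55.7, 53.2 and 46.6 CPM). In those 2 lists 1 of 6 and 3 of 7 markers lay higher in both transgenic libraries, and 0 of 6 and 1 of 7 lower. Sums for 7 alveolar macrophage markers (156, 295, 175 and 302 CPM) and 6 conventional dendritic cell markers (69.3, 103, 84.5 and 111 CPM) were not ordered in that way. Most of the alveolar macrophage sum was Car4, at 104 to 226 CPM, and nearly all of the dendritic cell sum was Clec9a and Zbtb46. Car4, Clec9a and Zbtb46 each rose in the order B, D, E, F, as did the sum of 7 endothelial markers (4440, 5650, 7196 and 7943 CPM). These sums therefore mostly reflect those genes and may not measure the cell types named. Of the alveolar macrophage markers Pparg and Ear2 (2 of 7) lay higher in both transgenic libraries, and 0 lower. Of the dendritic cell markers Flt3 and Itgae (2 of 6) lay higher in both, and Xcr1 (1 of 6) lower. The part of the cell types named here in the Zbp1 values was not tested.

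Of the antiviral effectors, Rsad2 had the smallest p. It encodes viperin, which makes a chain-terminating nucleotide. Rsad2 (ENSMUSG00000020641, chromosome 12, 26442753 to 26456452) had 65 counts in B and 91 in E against 130 in D and 137 in F, or 0.860 and 1.03 CPM against 1.61 CPM in both controls. Both transgenic libraries were lower, and the controls were alike. Means were 0.944 ± 0.118 and 1.61 ± 0.0034 CPM (SD, n = 2 each). The log2 fold change was -0.77 (SE 0.25, edgeR adjusted p = 1). With a term that separates B with D from E with F, the adjusted p was 0.799, shared with Irf1 and the smallest of any member in that fit.

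The IFIT genes encode proteins that bind foreign RNA and block its translation. Ifit2 was at 13.2, 14.8, 17.3 and 13.1 CPM, Ifit3 at 2.18, 1.43, 2.08 and 1.10 CPM, and Ifit1 at 0.702, 0.767, 1.01 and 0.505 CPM. In all 3 genes control F was the lowest library, and the groups overlapped. Control D held 1.99 times the Ifit1 level of control F, so the spread within the control group was larger than the difference between the group means (0.734 and 0.755 CPM).

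The OAS genes encode enzymes that answer double-stranded RNA by activating an RNase. Oasl2, an OAS-like gene, had the highest level of the family per length (2.33), at 7.90, 9.07, 8.49 and 10.7 CPM. Oas3 had 14 and 15 counts in the transgenic and 27 and 20 in the control libraries (log2 fold change -0.68, SE 0.43), and Oasl1 36 and 30 against 22 and 19 (log2 fold change 0.71, SE 0.40), both at an edgeR adjusted p of 1. These 2 scarce genes of 1 family lay in opposite directions. Oas1a had 13, 53, 35 and 36 counts, and Oas2 8, 35, 22 and 25.

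Mx1, which encodes a GTPase that blocks influenza virus and is defective in many laboratory strains, showed the same pattern as Oas1a and Oas2. It had 8, 47, 41 and 40 counts, or 0.106, 0.530, 0.509 and 0.470 CPM. Library B was lowest for all 3 genes and its transgenic partner E the highest, so the 2 transgenic libraries differed 5.01-fold for Mx1, 3.73-fold for Oas2 and 3.48-fold for Oas1a, while the 2 controls differed 1.08-fold, 1.08-fold and 1.03-fold. Over all 4887 genes tested averaging under 1 CPM, B was the lowest library for 36.9% and E the highest for 1341. Mx1, Oas1a and Oas2 were singled out after their values were seen. Mx2 did not share the pattern, at 1.93, 1.30, 1.66 and 2.0 CPM.

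Isg15, the ubiquitin-like modifier gene, was at 1.71, 2.01, 2.12 and 1.95 CPM. Usp18, which encodes the protease that removes ISG15 and dampens the type I receptor, was at 8.39 CPM in B and 4.72 in E, with the controls between them at 6.60 and 6.35. Means were 6.55 ± 2.60 and 6.48 ± 0.18 CPM (SD, n = 2 each), and the transgenic libraries lay on either side of the controls.

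The remaining type I effectors did not separate the groups. Bst2 stood at 19.9, 24, 23.8 and 23.1 CPM. Parp14, an ADP-ribosyltransferase gene, stood at 42.9, 48.2, 45.2 and 49.9 CPM, Xaf1, a pro-apoptotic gene, at 21.7, 22.5, 24 and 18.5 CPM, and Ifi44 at 1.85, 1.82, 1.94 and 1.71 CPM. The groups overlapped in each of these 4 genes. Bst2 is also used as a marker of plasmacytoid dendritic cells, major producers of type I interferon. Siglech, which defines those cells in mice, had 0, 18, 5 and 6 counts, and Klk1, of the same list of 7 markers, 0, 4, 3 and 0. The other 5 were counted in every library, Ccr9 at 15 to 30 counts, Ly6d at 41 to 65, Cox6a2 at 40 to 60 and Pacsin1 at 25 to 46. The list summed to 161, 225, 193 and 223 CPM, nearly all of it Tcf4, a broadly expressed transcription factor gene, at 159 to 222 CPM. Bst2 had at least 1500 counts in every library, and the part of these cells in its values was not tested.

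The log2 fold changes of the 9 GTPases ran from -0.16 for Irgm1 to 0.18 for Igtp, and the 95% interval of each of the 9 stayed within a 2-fold difference in both directions. The type I values ran from -0.77 to 1.02. All 9 GTPases averaged at least 1 CPM, while 7 type I members did not, and the interval narrows with the count.

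The guanylate-binding proteins coat and break the membranes of pathogen vacuoles. Gbp4 stood at 38.7 CPM in B and 39.5 in D, and at 50.1 in E and 50.9 in F. Gbp7 stood at 33.5 and 36.1 CPM in B and D, and at 44.4 and 41.3 CPM in E and F. Both genes thus sorted the libraries into B with D and E with F rather than by genotype, with group means of 44.4 and 45.2 CPM for Gbp4 and 39 and 38.7 CPM for Gbp7 in transgenic and control libraries. Sums of several marker lists were ordered in the same way: 7 endothelial markers at 4440 CPM in B and 5650 in D, against 7196 in E and 7943 in F, 6 fibroblast markers at 948 and 1605 against 2233 and 2596, and the 7 alveolar macrophage markers given above. Most of that last sum was Car4, which was ordered like the endothelial sum, so it may not measure macrophages. Within the endothelial list Egfl7 was not, at 566 CPM in D and 557 in E. Nor was Tcf21 of the fibroblast list, at 10.6 CPM in D and 10.2 in E. In the macrophage list Pparg (7.07 CPM in B, 5.76 in F) and Ear2 (4.82 in B, 3.85 in F) were not. The part of these cell types in the Gbp4 and Gbp7 values was not tested. Gbp2 was at 13.5 CPM in B and between 16.4 and 16.8 CPM in the other libraries (log2 fold change -0.12, SE 0.15, edgeR adjusted p = 1). Gbp3 was at 7.58, 6.35, 6.58 and 7.84 CPM in B, E, D and F, and the row named Gbp6 at 5.93, 6.07, 6.25 and 5.67 CPM. The identifier of that row (ENSMUSG00000079362) carries the name Gm43302 in GENCODE M21, while the other 33 members kept their names. Guanylate-binding protein genes lie in 2 clusters, on chromosomes 3 and 5, of closely related and partly overlapping genes, so reads may be split between them.

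The immunity-related GTPases act on the same vacuoles, the Irgm proteins as regulators of the others. Irgm1 (ENSMUSG00000046879, chromosome 11, 48861968 to 48871683) was ordered in the opposite way to Gbp4, at 33 CPM in B and 37.1 in D, and at 21 in E and 23.2 in F. That order, B and D both above E and F, was found for 30.0% of all genes tested averaging 1 CPM or more. The sum of 8 epithelial markers, most of it Sftpc, was higher in B and D too, at 52699 and 43914 CPM against 33108 in E and 30805 in F. Of the 8, Foxj1, a gene of ciliated cells, was not, at 124, 93.3, 93.6 and 124 CPM, and their part in the Irgm1 values was not tested. The log2 fold change of Irgm1 was -0.16 (SE 0.31, edgeR adjusted p = 1), and it turned to 0.22 without library D and to 0.12 without library E. Iigp1 stood at 19.5, 23.3, 24 and 21.1 CPM in B, E, D and F. Irgm2 was at 10.8 and 10.1 CPM in B and E against 11.9 and 10.9 in D and F (log2 fold change -0.13, SE 0.14, edgeR adjusted p = 1), the 1 GTPase whose groups did not overlap. Igtp was at 8.29 and 6.56 CPM against 7.0 and 6.09 (log2 fold change 0.18, SE 0.19, edgeR adjusted p = 1). Without library B the value of Igtp was 0.0027, and without library E 0.33. The gene models of Igtp and Irgm2 overlap on the same strand, and reads in the shared part may be split between them.

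Members differed between libraries of 1 genotype as well. For the 27 members averaging at least 1 CPM, the median absolute log2 difference was 0.23 between B and E and 0.18 between D and F, against 0.10 between the mean of the transgenic and the mean of the control libraries. A mean of 2 libraries varies less than 1 library, so the last value is not on the same footing. Between single libraries of opposite genotype the median was 0.15 for B and D and 0.12 for E and F. Over all genes at that level the same medians were 0.21, 0.15, 0.09, 0.16 and 0.08. By list, and with the scarce members included, the medians over the 25 type I members were 0.20 (B and E), 0.14 (D and F), 0.26 (B and D) and 0.25 (E and F), and over the 9 GTPases 0.31, 0.19, 0.17 and 0.11. Within-genotype medians were the smaller ones for the type I members and the larger ones for the GTPases, a difference with no test. Libraries B and D both lay above E and F for 7 of the 34 members and both below for 7 (20.6% each), against 26.7% and 27.3% of all genes tested.

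**Figure D4:**
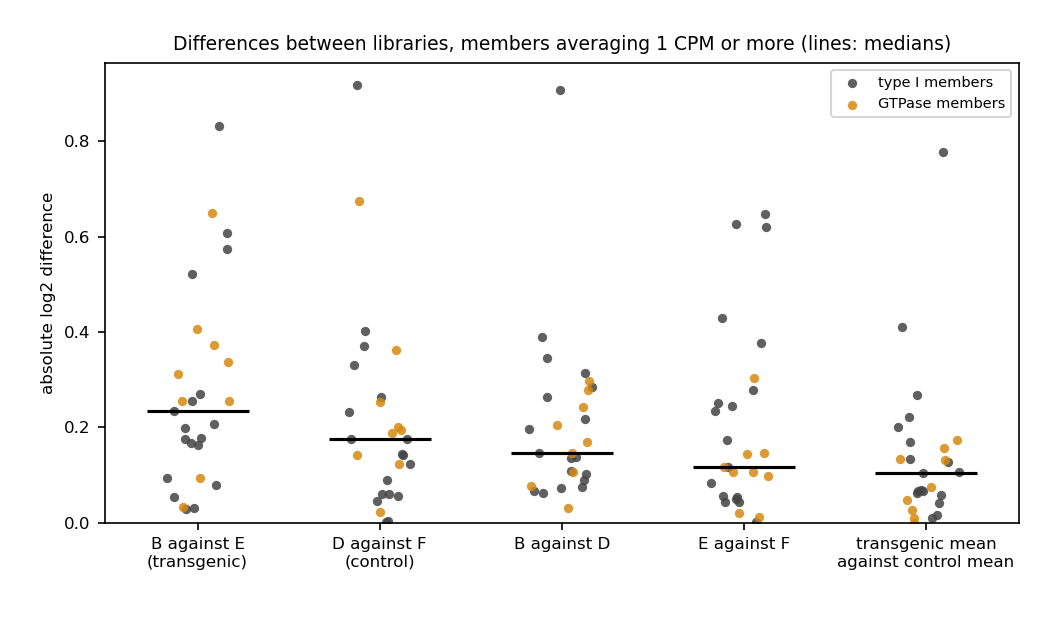
Absolute log2 difference of each member averaging at least 1 CPM between the libraries of 1 genotype (first 2 columns), between libraries of opposite genotype (next 2 columns) and between the genotype means (last column). Points are genes, grey for type I members and orange for GTPases, and lines are medians, from 0.23 on the left to 0.10 on the right.

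The interferon genes themselves had almost no counts in these libraries. Of 14 interferon genes looked up, 12, among them Ifnb1, all 7 alpha genes on the list and the lambda genes Ifnl2 and Ifnl3, had 0 counts in all 4 libraries. For counting error (3 counts) this allows a level of up to 0.0342 to 0.0394 CPM per library, here on the unscaled total of gene counts. That bound does not cover multiply mapped reads, and no source used here says how those were counted. If they were left out, related genes such as the alpha genes could show 0 counts and still be transcribed. Ifnk had between 1 and 3 counts per library. Ifng, the gene of interferon gamma, had 58, 6, 14 and 9 counts. Library B stood apart from its transgenic partner there too, and the groups overlapped. Natural killer cells make interferon gamma, and the sum of their 7 markers given above was also highest in B. The sum of the 7 T cell markers was highest in B as well (9.74 CPM, 9.11 in E), and that of the 7 neutrophil markers in E. Of the 7 natural killer cell markers, Ncr1, which defines these cells, had 56, 21, 34 and 4 counts, while Gzmb had 26, 88, 21 and 59 and Klrk1 10, 25, 30 and 2. The part of these cell types in the Ifng values was not tested.

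The receptors and their kinases were well expressed, and 0 of 9 passed the test in either direction. Their log2 fold changes ran from -0.11 to 0.28, and all 9 intervals stayed within 2-fold. Ifnar1, a chain of the type I receptor, stood at 109, 126, 121 and 133 CPM. Ifnlr1, the specific chain of the lambda receptor and a gene of epithelial cells, stood at 15.8, 11.1, 12.2 and 9.87 CPM. Jak2 stood at 87.3, 83.3, 73.9 and 84.7 CPM and Tyk2 at 28.9, 33.5, 34.5 and 33 CPM. The groups overlapped in all 9 genes.

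Of 14 genes upstream of interferon production, 0 passed the test in either direction. Irf8, a transcription factor gene of dendritic cells and monocytes, had the smallest p of the list (edgeR adjusted p = 1), at 5.88, 7.29, 4.38 and 4.54 CPM. Tlr9, a DNA receptor gene, was at 0.238 and 0.361 CPM against 0.124 and 0.176, and Tlr7, an RNA receptor gene, at 1.30 and 3.44 CPM against 0.757 and 1.53. The kinase gene Ikbke was at 11.5, 8.44, 7.38 and 8.79 CPM in B, E, D and F. The groups of Irf8 and Tlr9 did not overlap, and those of Tlr7 and Ikbke did.

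Of 10 negative regulators 0 passed in either direction. Ptpn6, a phosphatase gene of blood cells, was at 17.6 and 16.3 CPM in transgenic and 13 and 13.8 CPM in control libraries, without overlap. Socs1, an inhibitor of JAK kinases, was at 4.32, 3.87, 6.25 and 3.97 CPM in B, E, D and F, Trex1, a DNase gene, at 5.19, 4.25, 6.07 and 4.99 CPM, and Socs3 at 448, 450, 442 and 517 CPM.

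Targets beyond the 34 members gave the same count of 0. Of 34 further interferon-stimulated genes tested, 0 passed in either direction, 10 values were above 0 and 24 below, and the median log2 fold change was -0.05. Those with the smallest p were Ifi27l2a (0.424 and 0.327 CPM in B and E, 0.571 and 0.528 in D and F), Ifi35 (20.2 and 22 against 23.6 and 23.5 CPM) and the membrane barrier genes Ifitm2 (43.9 and 56.9 against 55.2 and 60.8 CPM) and Ifitm3 (61.5 and 70.4 against 69.3 and 76.8 CPM). The groups of the first 2 did not overlap. Of 20 further genes induced by interferon gamma, 0 passed in either direction, and the median was 0.09. Nlrc5, the transactivator of MHC class I genes, was at 2.86 and 2.84 CPM against 1.75 and 1.97, and Tgtp2, another GTPase gene, at 0.529 and 0.440 CPM against 0.794 and 0.622, both without overlap but in opposite directions. Ciita stood at 28.4, 22.5, 23.6 and 19.6 CPM in B, E, D and F, and Cd274, the PD-L1 gene, at 5.48, 7.21, 3.34 and 5.97 CPM.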

How the data were processed

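The authors deposited 1 table that holds, per the file headers, a raw count and an RPKM value for each gene in each library. The deposited RPKM served only to work out the totals behind those values, of which the gene counts made up 80.3% to 82.7%. TopHat2 (version 2), Bowtie (1) and featureCounts (1), and the build mm10 (GRCm38), are named in the submitters' processing notes. No source used here gives the strand setting or how multiply mapped reads were counted. Members were matched by the table's own gene names, and other lists by Ensembl identifier to GENCODE M21.

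Low counts were removed by filterByExpr (at a minimum of 10 and a summed minimum of 15), 20872 genes were kept, and TMM factors scaled the libraries. Transgenic and control libraries were compared by the quasi-likelihood test of edgeR 4.0.16 in R 4.3.3, with Benjamini-Hochberg adjustment over all genes tested and a threshold of 0.05. Standard errors are the log2 fold change over the square root of F. DESeq2 1.42.0, limma-voom (limma 3.58.1) and other alternatives are given at the end. The fits were tested on simulated data. The members and lists were chosen, and the grouping by role was made, with earlier results of these data known. Members averaging 1 CPM or more are given in all libraries, scarcer ones too where a result turns on them, and fold changes for the 6 type I members and 4 GTPases with the smallest p. Of the other lists up to 4 genes with the smallest p are named. In the list of receptors and kinases 1 further gene, not counted in the 9, is not reported here.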

Additional observations from a re-analysis of the deposited data

How the results depend on the processing

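No member was called (0 of 34) in the edgeR quasi-likelihood fit or in any of the 13 alternatives. At an unadjusted p under 0.05 there were 2 members in the edgeR fit and between 0 and 2 in the alternatives. Over all genes the count of calls was 0 in the edgeR fit, 1 with DESeq2 and, with 1 library left out, between 0 and 15. With 1 library left out the median log2 fold change ranged from -0.11 to -0.0057 for the type I members and from -0.095 to 0.024 for the GTPases, and the number of members whose groups did not overlap ranged from 13 to 18 and from 4 to 6, since 3 libraries overlap less often than 4 (54.4% to 74.2% of all genes did not). In these fits the lone library of a group is assumed to vary like the other group. With the Y-linked level as a covariate the medians were 0.085 for the type I members and 0.092 for the GTPases, Gbp2 turned to 0.22 and Igtp to -0.16, Irf1 was -0.99, Rsad2 -0.48, Oasl1 0.20, Irgm2 -0.20 and Irgm1 -0.75, and the cause was not tested. With 1 library left out Gbp2 ranged from -0.30 to 0.024, turning without B, and Irgm1 from -0.52 to 0.22, turning without D (0.22) or E (0.12), while Irf1 ranged from -0.67 to -0.16, Igtp from 0.0027 to 0.33, Oasl1 from 0.45 to 0.93, Oas3 from -0.91 to -0.40 and Irgm2 from -0.19 to -0.068. With a filter of at least 1 CPM in 2 libraries 4 of 18 type I members did not overlap, against 7 of 25. The count fell because 7 scarce members were no longer tested. For the GTPases both counts were 1 of 9. The share of all genes tested was 21.9% under that filter and 23.9% in the edgeR fit. These counts are not a result about the members. Apart from Gbp2, Igtp and Irgm1, the 10 fold changes given with an adjusted p kept their direction under every alternative run. No paired analysis was possible because the labels give no replicate numbers shared between the groups, and the term that sets B with D apart from E with F follows how the libraries lay in these data, not a labelled pairing. Depth limits the 7 members under 1 CPM most, for which no interval stayed within 2-fold.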
